A study of Mus musculus with 16 samples.

Results

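The 10 receptors described here raise or lower insulin release from pancreatic islets. They were found by their symbols in the deposited expression table, and all 10 were among its 25105 genes. By the G protein they mainly use, Glp1r, Gipr, Gcgr and Gpr119 couple to Gs, Ffar1 and Chrm3 to Gq, and Adra2a, Sstr3 and Galr1 to Gi/o. The 10th, Prlr, is not a G protein coupled receptor. It is a class I cytokine receptor that signals through JAK2 and STAT5, and it is described here beside the others.

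Gs-coupled receptors raise cyclic AMP, which amplifies glucose-stimulated insulin release through protein kinase A and the exchange factor EPAC2. Gq-coupled receptors activate phospholipase C and release calcium from the endoplasmic reticulum. Gi/o-coupled receptors lower cyclic AMP and open potassium channels, and through them adrenaline, somatostatin and galanin restrain secretion. Prolactin signalling is best known in islets for the growth of the beta cell mass in pregnancy.

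The study used islets from Grp78 flox/flox mice, in which Hspa5, the gene of the endoplasmic reticulum chaperone GRP78, can be deleted by Cre recombinase. Dispersed islet cells were transduced with adenovirus carrying LacZ (Ad-LacZ, the control) or Cre (Ad-Cre), each from a CMV promoter that is not restricted to beta cells. Each virus was combined with DMSO vehicle or with JNK-IN-8, a covalent inhibitor of the JNK kinases, for 72 hours in 15 mM glucose, and all 4 groups carried the floxed alleles, a virus and the high glucose. Each group held 4 libraries from the preparations F1, M1, M2 and F2, each labelled with 2 animal numbers. The study describes the animals as adult. The mRNA was measured by paired-end sequencing of whole cultures, so fewer cells of a type and less RNA per cell cannot be told apart.

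Levels are in RPKM (reads per kilobase of gene, scaled to the library's mapped reads), which allow levels of different genes to be compared. The depth estimated from the smallest steps of these values ran from 7.7 to 25.37 M reads (M for mega) per library, and the shallowest was Ad-Cre with JNK inhibitor from preparation F2, the only one whose library name carries another lane code. About 68 reads at the fewest stood behind Gpr119, 70 behind Gipr and 91 behind Gcgr in a library, against at least 1071 for Adra2a, Sstr3, Prlr and Glp1r. Hspa5 itself was 438 ± 49.0 RPKM (SD, n = 4) in Ad-LacZ and 1260 ± 231 in the libraries labelled Ad-Cre, higher in 4 of 4 preparations (log2 fold change 1.51 ± 0.18 SE, adjusted p = 0.00224). The level over the whole gene was thus higher, not lower, in the libraries labelled as knockdown, and "Ad-Cre" below means the libraries labelled Ad-Cre. Whether reads from the deleted exons were lost cannot be read from a value per gene. These values therefore do not decide whether the deletion took place.

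The islet label held against marker genes. The 10 beta cell markers, among them Ins1, Ins2 and Iapp, summed to between 33400 and 85000 RPKM in every library, and the 7 alpha cell markers to between 11000 and 27300. Of the 6 acinar cell markers, the digestive enzyme genes Prss2, Cpb1 and Amy2a5 were listed at 0 in all Ad-Cre libraries, and Cela1 made up nearly all of the sums of 1.82 to 10.6 RPKM. The 7 stellate cell and fibroblast markers differed between preparations, with sums of 21.8 to 105 RPKM in F1 and M1 and 55.1 to 683 RPKM in M2 and F2. Within each group M2 and F2 lay above F1 and M1, while the ranges over all groups overlapped.

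The positions are those of the GRCm38 genome, each for a protein-coding gene from its first to its last base. Glp1r (ENSMUSG00000024027) lay on chromosome 17 at 30901817-30940791, plus strand. Gcgr (ENSMUSG00000025127) lay on chromosome 11 at 120530699-120538986, plus strand, and Gpr119 (ENSMUSG00000051209) on the minus strand of chromosome X at 48667979-48674478. Gipr (ENSMUSG00000030406) and Ffar1 (ENSMUSG00000044453) shared the minus strand of chromosome 7, at 19156061-19166127 and 30857390-30861564. Prlr (ENSMUSG00000005268, 10177238-10349180, plus strand) and Sstr3 (ENSMUSG00000044933, 78537008-78544685, minus strand) shared chromosome 15. Chrm3 (ENSMUSG00000046159) lay on chromosome 13 at 9875486-10360847, minus strand and Adra2a (ENSMUSG00000033717) on chromosome 19 at 54044151-54048982, plus strand. Among their exons, only those of Prlr shared bases with another gene of the same strand, 203 bases with Gm21973 in GENCODE M21, so reads there could be counted for either gene.

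Sequences upstream of start sites are shown for Prlr, called in both virus comparisons below, for Gpr119, called in vehicle, and for Gcgr, called for the inhibitor only when preparation was a block. Ffar1, called between the viruses with inhibitor, had no motif match and is not shown. The Gcgr stretch stops 50 bases short of the listed start site, since GENCODE M21 begins the gene within those bases. They come from RefSeq on GRCm38.p6, read 5' to 3' on the gene's strand, and capitals mark a match to a searched motif.
Prlr, start site 1, chr15:10176988-10177237, plus strand: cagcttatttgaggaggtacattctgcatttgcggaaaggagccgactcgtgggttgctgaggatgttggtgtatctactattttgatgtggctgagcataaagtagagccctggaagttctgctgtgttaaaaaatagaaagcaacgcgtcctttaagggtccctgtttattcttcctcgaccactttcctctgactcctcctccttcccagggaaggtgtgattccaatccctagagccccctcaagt
Prlr, start site 3, chr15:10293591-10293650, plus strand: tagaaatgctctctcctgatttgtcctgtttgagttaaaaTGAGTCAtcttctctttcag
Gpr119, chrX:48674479-48674728, minus strand: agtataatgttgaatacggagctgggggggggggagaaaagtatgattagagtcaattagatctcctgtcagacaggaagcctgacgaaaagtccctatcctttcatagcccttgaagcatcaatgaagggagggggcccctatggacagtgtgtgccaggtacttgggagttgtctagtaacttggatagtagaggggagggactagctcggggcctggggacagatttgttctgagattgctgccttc
Gcgr, chr11:120530477-120530676, plus strand: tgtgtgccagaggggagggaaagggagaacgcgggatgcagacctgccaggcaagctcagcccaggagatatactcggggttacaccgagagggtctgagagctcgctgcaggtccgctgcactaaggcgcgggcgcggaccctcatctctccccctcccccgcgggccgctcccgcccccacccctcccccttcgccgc

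Windows of 300 bases (250 before and 50 after each start site) were used for 8 of the 10 receptors, 11 windows in all. Gipr and Galr1 were not searched. Both strands were searched for the cyclic AMP response element (CRE, TGACGTCA), the AP-1 element (TGANTCA), which binds factors of the JUN and FOS families that JNK acts on, and the unfolded protein response element (UPRE, TGACGTGG). No motif contains another, and the CRE and the UPRE both begin with TGACGT. Among all 32851 windows, 1.79% held the CRE, 7.81% the AP-1 element and 0.676% the UPRE. A single receptor window held a match, the AP-1 element shown in capitals, 20 bases before the third start site listed for Prlr. In GENCODE M21 an exon begins at that site in 11 of 12 Prlr transcripts and is the first exon in 0 of them, so by that annotation these letters lie in an intron. By GENCODE M21 the Adra2a window, both Sstr3 windows and those of Prlr start sites 2 and 3 lay wholly inside their genes. For Adra2a and Sstr3 no bases before the annotated gene start were therefore searched. No match says only that these letters are not in the window.

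In the Ad-LacZ controls the receptors spanned a wide range of levels. Glp1r, the receptor for glucagon-like peptide 1, stood highest at 104 ± 21.1 RPKM (SD, n = 4), and its 4 libraries lay above all those of the next gene. Adra2a, which answers adrenaline and noradrenaline, followed at 58.9 ± 13.6, Sstr3, a somatostatin receptor, at 42.4 ± 1.36 and Prlr at 41.4 ± 8.4, and the ranges of these neighbours overlapped. Ffar1, the receptor for long-chain fatty acids, was separate from both neighbours at 17.3 ± 1.84. The other 5 lay between 5.11 and 9.71 RPKM on average, in the order Galr1, Chrm3, Gcgr, Gpr119 and Gipr, and the ranges of each neighbouring pair overlapped. Sstr3 was the most even between preparations, with a coefficient of variation of 3.21%, and Gcgr the least, with 50.3%.

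**Figure D1:**
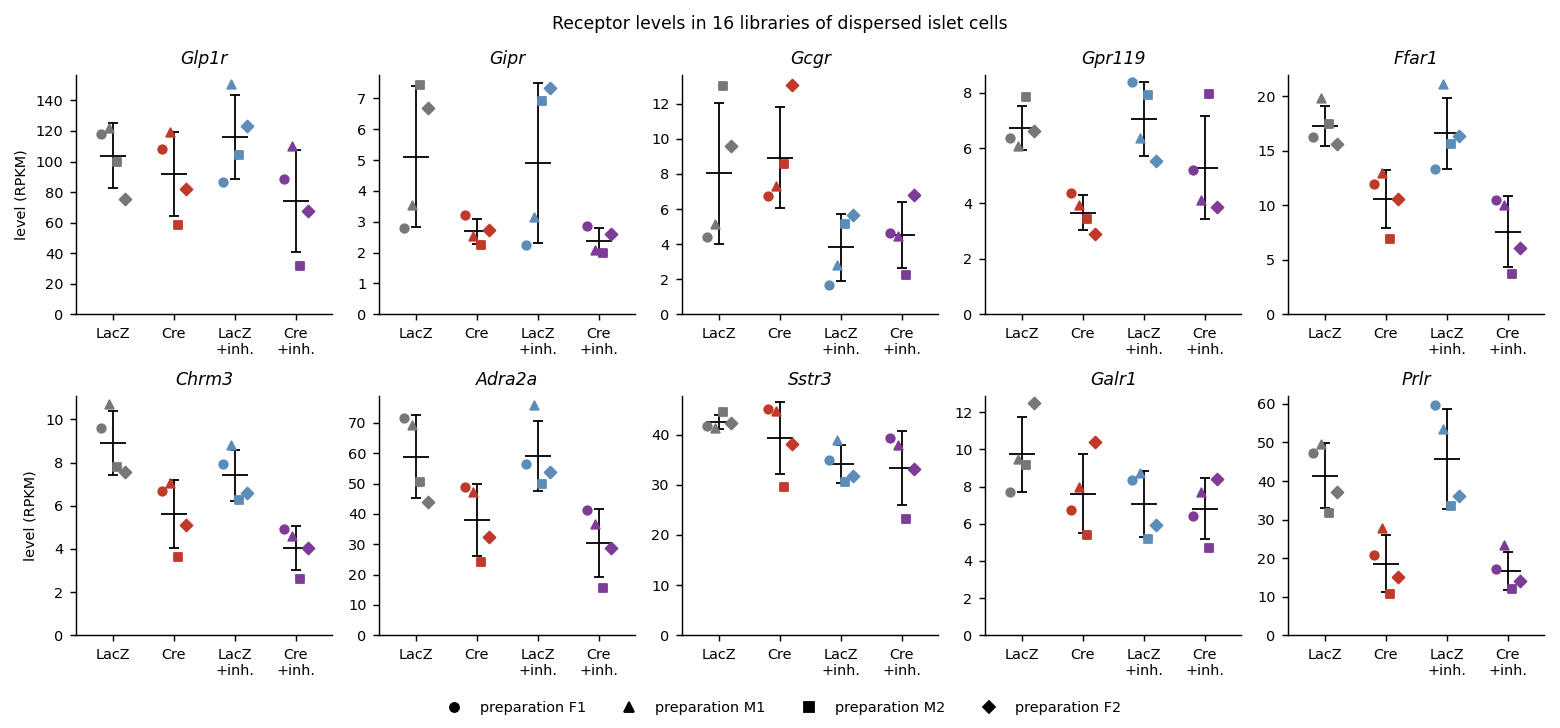
Level in RPKM (vertical axis, from 0, a separate scale for each gene) of the 10 receptors in the 16 libraries, in Ad-LacZ, Ad-Cre, Ad-LacZ with JNK inhibitor and Ad-Cre with JNK inhibitor. Symbols mark the preparation, and the bar and whiskers give the mean and SD of 4 libraries. Prlr, Ffar1 and Chrm3 sit lower in both Ad-Cre groups than in their Ad-LacZ groups, with no overlap.

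Ad-Cre was first compared with Ad-LacZ in vehicle, which asks how the receptors stand where Cre was delivered. Prlr and Gpr119 fell, and 9 of the 10 receptors had lower fitted values with Ad-Cre. The receptors' median log2 fold change was -0.62, beside -0.01 over the 11590 genes tested. A gene was called when its adjusted p was under 0.05 and its fold change above 1.5. This held for 2 of 10 receptors, both lower, and for 8.48% of all genes tested, or 4.43% counted as lower only. By the study's rule, with the unadjusted p in its place, 5 of 10 were called (Chrm3, Ffar1, Gipr, Gpr119 and Prlr), beside 10.3% of all genes. The groups did not overlap, with Ad-Cre lower, for 4 of 10, beside 15.9% of all genes.

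Prlr carried the largest difference. It measured 47.3, 49.5, 31.8 and 37.1 RPKM in Ad-LacZ (preparations F1, M1, M2 and F2, in this order throughout) and 20.7, 27.7, 10.6 and 15.0 in Ad-Cre. Every Ad-Cre library was below every Ad-LacZ library, the mean ratio was 0.446, and the log2 fold change was -1.18 ± 0.33 (SE, adjusted p = 0.0406). Within preparations the log2 ratio ran from -1.54 in M2 to -0.77 in M1. The adjusted p rose to 0.109 without preparation F1, 0.0673 without M1 and 0.185 without F2.

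Gpr119, a receptor for oleoylethanolamide and related lipids on beta cells, measured 6.35, 6.06, 7.84 and 6.63 RPKM in Ad-LacZ and 4.36, 3.94, 3.42 and 2.91 in Ad-Cre. The groups did not overlap, and the log2 fold change of -0.73 ± 0.14 (adjusted p = 0.0118) had the smallest SE of the 10. Adding 1 to the RPKM before the log narrows both the change and the SE of low genes such as Gpr119. The ratio of its mean RPKM was 0.544. The within-preparation log2 ratios were -0.40 and -0.48 in F1 and M1 and -1.02 and -1.03 in M2 and F2. The adjusted p of Gpr119 was 0.0521 without M1, 0.0593 without M2 and 0.0929 without F2.

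Both Gq-coupled receptors were lower in 4 of 4 preparations without passing the adjusted threshold. Ffar1 measured 16.2, 19.8, 17.4 and 15.6 RPKM in Ad-LacZ against 11.9, 12.9, 6.85 and 10.6 in Ad-Cre, with no overlap and a log2 fold change of -0.69 ± 0.22 (adjusted p = 0.0637). Chrm3, the muscarinic receptor through which acetylcholine raises insulin release, measured 9.59, 10.7, 7.82 and 7.57 against 6.70, 7.04, 3.63 and 5.11. Its groups did not overlap either, at a log2 fold change of -0.61 ± 0.24 (adjusted p = 0.112). For each of these 4 receptors the exact two-sided permutation test on RPKM gave p = 0.0286, the smallest that 4 against 4 libraries allow. This test takes the libraries as unpaired, although those of the same preparation share animals.

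Among the Gi/o-coupled receptors, Adra2a measured 71.6, 69.2, 50.6 and 44.1 RPKM in Ad-LacZ and 48.9, 47.1, 24.2 and 32.4 in Ad-Cre. It was lower in 4 of 4 preparations, by log2 ratios between -1.09 and -0.47, but the groups overlapped because the preparations differed (log2 fold change -0.64 ± 0.31, adjusted p = 0.179). Galr1, a galanin receptor, was also lower in 4 of 4, with means of 9.71 ± 1.98 and 7.61 ± 2.12 RPKM (log2 fold change -0.33 ± 0.21, adjusted p = 0.296). Its gene (ENSMUSG00000024553) lies on the minus strand of chromosome 18 at 82392380-82406777. Sstr3 was lower in 2 of 4 preparations (means of 42.4 ± 1.36 and 39.3 ± 7.23, log2 fold change -0.13 ± 0.19, adjusted p = 0.661).

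The 3 class B receptors for peptide hormones (Glp1r, Gcgr and Gipr) gave no call with the adjusted p, and Gipr was called by the unadjusted p. Glp1r measured 118, 122, 100 and 75.5 RPKM in Ad-LacZ and 108, 119, 58.2 and 81.8 in Ad-Cre (log2 fold change -0.21 ± 0.30, adjusted p = 0.652). Only M2 stood apart, with a log2 ratio of -0.83 beside values between -0.05 and 0.02 in the other 3. Gcgr, the glucagon receptor, measured 4.39, 5.12, 13.0 and 9.62 in Ad-LacZ and 6.74, 7.31, 8.54 and 13.1 in Ad-Cre, higher in 3 of 4 (log2 fold change 0.20 ± 0.27, adjusted p = 0.644).

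Gipr, the receptor for glucose-dependent insulinotropic polypeptide, split by preparation. In Ad-LacZ it measured 2.79 and 3.55 RPKM in F1 and M1 but 7.43 and 6.68 in M2 and F2, while all 4 Ad-Cre libraries lay between 2.24 and 3.22. The log2 ratios were 0.21 and -0.32 in F1 and M1, against -1.38 and -1.11 in M2 and F2, and the log2 fold change over all 4 was -0.65 ± 0.24 (adjusted p = 0.0884). M2 and F2 are the preparations with the higher stellate cell and fibroblast markers. The 7 markers summed to 108 and 55.1 RPKM there in Ad-LacZ, and to 683 and 179 in Ad-Cre, where Gipr was lower. The part of those cells in the Gipr values was not tested.

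Libraries with the same preparation name came from the same animals, and adding preparation as a block raised the number of called receptors to 5 of 10, beside 10.9% of all genes. The 3 added were Ffar1 (adjusted p = 0.00905), Chrm3 (0.00498) and Adra2a (0.00624), all lower. Prlr then had an adjusted p of 0.00104 and Gpr119 of 0.00533. Gipr (0.0626), Glp1r (0.287), Sstr3 (0.475) and Gcgr (0.399) stayed above 0.05, and Galr1 (0.0456) had a fold change under 1.5.

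The beta cell markers were lower beside these receptors. All 10 had negative fitted values with Ad-Cre (median log2 fold change -0.86), of which G6pc2 (-1.96 ± 0.32, adjusted p = 0.0069) and Ucn3 (-2.10 ± 0.59, adjusted p = 0.0401) were called. With the preparation block 7 of the 10 were called. The hormone genes differed less, with log2 fold changes of -0.38 ± 0.42 for Ins1 and -0.18 ± 0.46 for Ins2. The summed beta cell markers ran from 52100 to 85000 RPKM in Ad-LacZ and from 33600 to 84500 in Ad-Cre, and the macrophage markers C1qb and Ctss rose with Ad-Cre (2 of 6 called), with sums of 51.4 to 57.1 RPKM in Ad-LacZ and 57.1 to 110 in Ad-Cre. Their part in the receptor results was not tested.

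**Figure D2:**
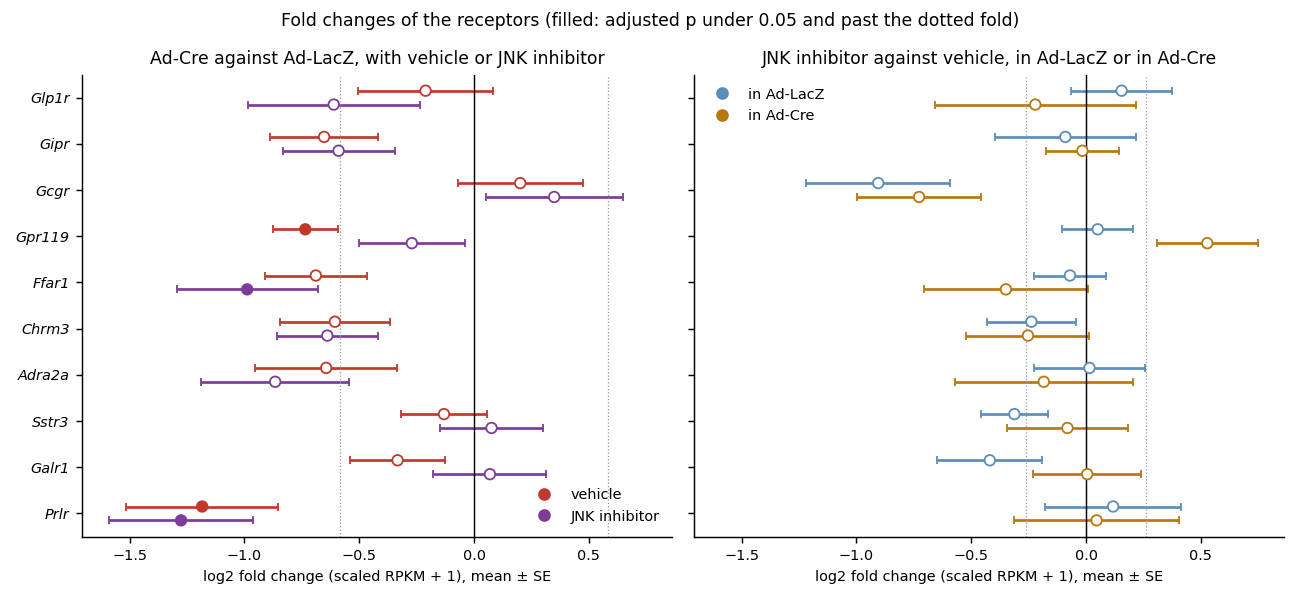
Log2 fold change of each receptor, on scaled RPKM plus 1, with its SE (horizontal axis), between the viruses (left, in vehicle or with JNK inhibitor) and between JNK inhibitor and vehicle (right, in Ad-LacZ or Ad-Cre). Filled points passed an adjusted p under 0.05 and the fold change marked by the dotted lines, which Prlr did in both virus comparisons, and no receptor did for the inhibitor.

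The same virus comparison was made among the cultures given JNK inhibitor, which uses separate libraries from the same 4 preparations. Prlr and Ffar1 fell, the only 2 of 10 called, beside 14.6% of all genes and 6.69% counted as lower only. By the unadjusted p, 5 of 10 were called (Adra2a, Chrm3, Ffar1, Gipr and Prlr), beside 17.8% of all genes. Adra2a, Chrm3, Ffar1 and Prlr had every Ad-Cre library below every Ad-LacZ library, 4 of 10 beside 20.7% of all genes, and the exact two-sided permutation p was 0.0286 for each. The receptors' median log2 fold change was -0.60, beside -0.03 for all genes tested.

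Prlr measured 59.7, 53.6, 33.6 and 36.0 RPKM in Ad-LacZ with inhibitor and 17.1, 23.4, 12.0 and 14.1 in Ad-Cre with inhibitor. The mean ratio was 0.364 and the log2 fold change -1.28 ± 0.31 (adjusted p = 0.0207), with within-preparation log2 ratios between -1.72 and -0.99. Its adjusted p was 0.0813 without F1, 0.0708 without M1 and 0.0901 without F2. Ffar1 measured 13.3, 21.1, 15.6 and 16.3 against 10.5, 9.97, 3.69 and 6.05, a log2 fold change of -0.99 ± 0.31 (adjusted p = 0.049) that ranged from -1.62 in M2 to -0.29 in F1. Its adjusted p was 0.0711 without F1, 0.125 without M1 and 0.193 without F2, and it also rose above 0.05 with a pseudocount of 0.1 (0.0524), with no filter (0.0979), with a filter of 0.1 RPKM (0.0607) and with no variance trend (0.0502).

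Adra2a measured 56.6, 76.0, 50.0 and 53.8 RPKM against 41.2, 36.6, 15.6 and 28.8 (log2 fold change -0.87 ± 0.32, adjusted p = 0.0848). Chrm3 measured 7.94, 8.81, 6.27 and 6.61 against 4.93, 4.58, 2.62 and 4.06 (log2 fold change -0.64 ± 0.22, adjusted p = 0.067). Both were lower in 4 of 4 preparations, and with the preparation block both were called (adjusted p = 0.0155 for Adra2a and 0.0112 for Chrm3). That fit called 4 of 10 receptors, beside 16.0% of all genes. Gipr again lay high in the Ad-LacZ libraries of M2 and F2 only, at 6.90 and 7.34 RPKM, with all Ad-Cre libraries between 1.97 and 2.85.

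Cell markers moved in this comparison too. Of the 10 beta cell markers 4 fell (G6pc2, Ucn3, Mafa and Slc2a2; 7 with the preparation block), with a median log2 fold change of -0.84, and their sums ran from 36200 to 61600 RPKM in Ad-LacZ and from 33400 to 64600 in Ad-Cre. The 6 stellate cell and fibroblast markers tested had a median of -1.20, none called without the block and 4 lower with it, and the sums over all 7 were 43.8 to 512 and 26.3 to 148 RPKM. The 4 delta cell markers had a median of 0.74, with 0 called and 2 higher with the block, and sums of 1270 to 3030 and 2470 to 6830 RPKM. Ppy, the PP cell marker, rose from 1520 ± 413 to 2570 ± 366 RPKM (adjusted p = 0.0263). Their part in the receptor results was not tested.

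Gpr119 was less separated here than in vehicle. It measured 8.38, 6.35, 7.90 and 5.54 RPKM in Ad-LacZ with inhibitor and 5.19, 4.14, 7.95 and 3.88 in Ad-Cre with inhibitor (log2 fold change -0.27 ± 0.23, adjusted p = 0.435). The M2 library, at about 363 reads, was the only one of the 4 that was higher with Ad-Cre. The same library had the lowest Glp1r of all 16, at 31.7 RPKM, the lowest summed beta cell markers of all 16, at 33400, and the highest summed alpha (27300) and delta cell markers (6830). The Ad-Cre vehicle library of M2 had nearly the same beta cell sum, 33600, with Gpr119 at 3.42 RPKM. Its alpha and delta cell sums were 13400 and 2480. The part of these cells in the receptor values of either library was not tested.

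Glp1r was 116 ± 27.5 RPKM against 74.4 ± 33.4 under the inhibitor (log2 fold change -0.61 ± 0.37, adjusted p = 0.274), lower in 3 of 4 preparations. Gcgr (0.35 ± 0.30), Galr1 (0.07 ± 0.25) and Sstr3 (0.08 ± 0.23) had positive fitted values with adjusted p of 0.437, 0.872 and 0.844. For Galr1 and Sstr3 the sign depended on the scaling, since without scaling the log2 fold changes were -0.04 and -0.05. Leaving out the scaling shifted the median of all genes by over 0.1, from -0.033 to -0.142.

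**Figure D3:**
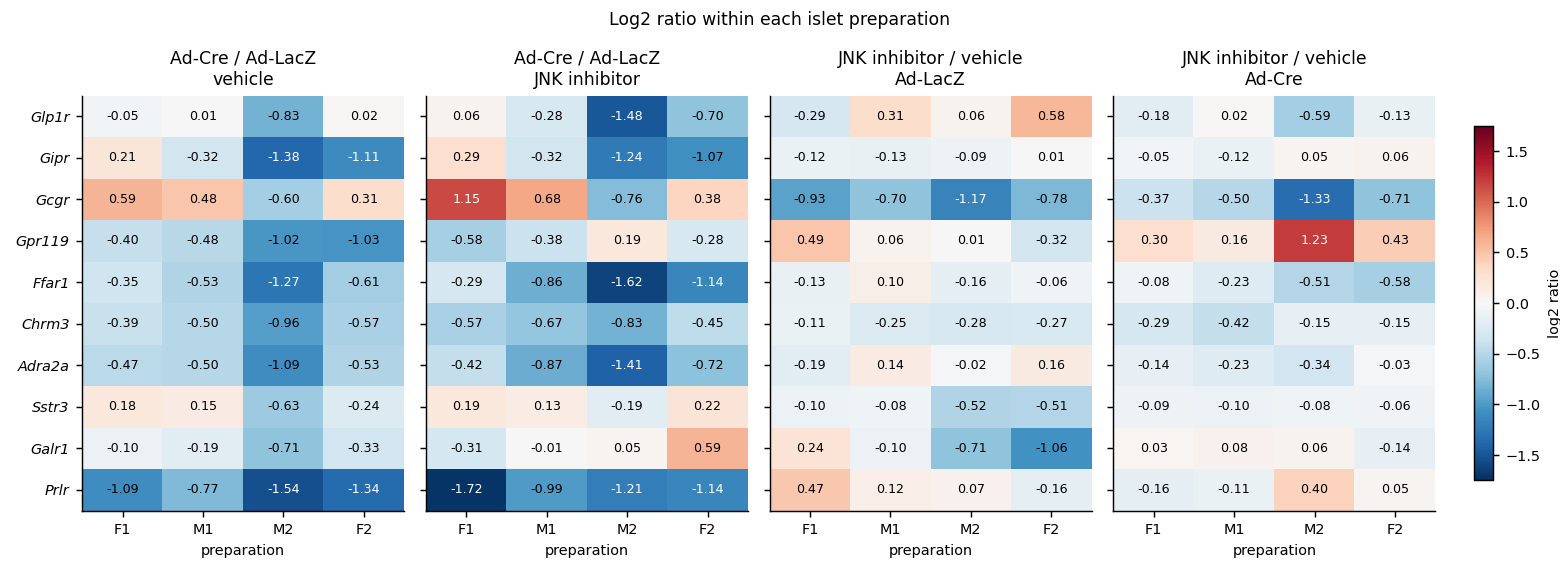
Log2 ratio of each receptor within each islet preparation (rows are receptors, columns are preparations F1, M1, M2 and F2, colour from blue for lower to red for higher), for Ad-Cre over Ad-LacZ in vehicle and with JNK inhibitor and for JNK inhibitor over vehicle in Ad-LacZ and in Ad-Cre. Prlr, Ffar1, Chrm3 and Adra2a are blue in all 8 virus cells. Gcgr, Chrm3 and Sstr3 are blue in all 8 inhibitor cells, Sstr3 only faintly in Ad-Cre.

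JNK inhibitor was then compared with vehicle for each virus, with a fold change above 1.2 as the study used. No receptor passed the adjusted threshold in Ad-LacZ, where 0.197% of all genes did, or in Ad-Cre, where 0.0174% did. By the unadjusted p, 1 of 10 was called in Ad-LacZ (Gcgr), beside 4.83% of all genes, and 2 of 10 in Ad-Cre (Gcgr and Gpr119), beside 7.81%. Of the 6 macrophage markers, Cd68 and Ctss rose with the inhibitor in Ad-LacZ, where the summed level went from between 51.4 and 57.1 RPKM to between 83.2 and 115, and none was called in Ad-Cre. For the 4 stellate cell and fibroblast markers tested in Ad-LacZ the median was 1.82 on the log2 scale, higher with the inhibitor, 0 called and 1 with the preparation block, with sums over all 7 of 23.6 to 108 and 43.8 to 512 RPKM. In Ad-Cre all 7 alpha cell markers had positive fitted values (median 0.55, 0 called and 2 with the block), with sums of 11800 to 21600 and 13300 to 27300 RPKM. All 4 delta cell markers did too (median 0.71, 0 called and 1 with the block), with sums of 1130 to 2550 and 2470 to 6830 RPKM. The part of these cells in the receptor values was not tested. These comparisons share their vehicle libraries with the first virus comparison and their inhibitor libraries with the second.

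Gcgr was lower with the inhibitor in 4 of 4 preparations under both viruses. In Ad-LacZ it measured 4.39, 5.12, 13.0 and 9.62 RPKM in vehicle and 1.66, 2.78, 5.15 and 5.63 with inhibitor, and the log2 ratios lay close together between -1.17 and -0.70. The groups overlapped because M2 and F2 started higher, and the log2 fold change was -0.91 ± 0.31 (adjusted p = 0.584). In Ad-Cre it measured 6.74, 7.31, 8.54 and 13.1 in vehicle and 4.65, 4.48, 2.22 and 6.82 with inhibitor (log2 fold change -0.73 ± 0.27, adjusted p = 0.513). With the preparation block Gcgr was the only receptor called in either, with an adjusted p of 0.0445 in Ad-LacZ, beside 0.335% of all genes, and of 0.0477 in Ad-Cre, beside 6.76% of all genes. The counts behind the low libraries were small, about 91 reads in F1 and 117 in M2.

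Gpr119 was higher with the inhibitor in 4 of 4 preparations of Ad-Cre, from 4.36, 3.94, 3.42 and 2.91 RPKM to 5.19, 4.14, 7.95 and 3.88 (log2 fold change 0.53 ± 0.22, adjusted p = 0.591). The log2 ratio was 1.23 in M2 and between 0.16 and 0.43 in the other 3, and with the preparation block the adjusted p was 0.138. In Ad-LacZ its log2 fold change was 0.05 ± 0.15 (adjusted p = 0.999).

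Sstr3 was lower with the inhibitor in Ad-LacZ without overlap, from 41.7, 41.4, 44.4 and 42.3 RPKM to 35.0, 39.0, 30.6 and 31.8 (exact two-sided permutation p = 0.0286). This was 1 of 10 receptors, beside 3.05% of all genes that were lower without overlap. Its log2 fold change was -0.31 ± 0.15 (adjusted p = 0.854). In Ad-Cre it was also lower in 4 of 4 preparations, by log2 ratios between -0.1 and -0.06. The groups overlapped there at 39.3 ± 7.23 and 33.4 ± 7.34 RPKM (log2 fold change -0.08 ± 0.26, adjusted p = 0.98).

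Chrm3 was lower with the inhibitor in 4 of 4 preparations under each virus, by small amounts (log2 fold change -0.24 ± 0.19 in Ad-LacZ and -0.25 ± 0.27 in Ad-Cre, adjusted p = 0.999 and 0.9). Prlr showed no such direction, at 0.12 ± 0.29 and 0.05 ± 0.36 (adjusted p = 0.999 and 0.989). Of the other receptors, Adra2a, Ffar1, Galr1, Gipr and Glp1r had log2 fold changes between -0.42 and 0.16 in Ad-LacZ and between -0.35 and 0.01 in Ad-Cre. In Ad-Cre the signs of Galr1 and Prlr turned negative without scaling, which moved the median of all genes from -0.007 to -0.139.

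Whether the inhibitor altered the difference between the viruses was tested with the interaction term over all 16 libraries. No receptor passed at an unadjusted p under 0.05 or at an adjusted p under 0.05. Among the 12274 genes tested, 396 had an unadjusted p under 0.05 and 0 an adjusted p under 0.05 in limma. Gpr119 had the largest interaction, 0.47 ± 0.28 on the log2 scale (adjusted p = 1.0), followed by Galr1 at 0.42 ± 0.35. For Prlr the interaction was -0.08 ± 0.50 and for Chrm3 -0.03 ± 0.36, with errors wider than the values themselves.

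The genes that carry the receptors' signals were described in 9 lists, of which 98 genes passed the filter on low values of 148 in the table. Between the viruses in vehicle, 20 of the 98 were called (16 lower and 4 higher), beside the 8.48% of all genes, and their median log2 fold change was -0.13. These lists, like the receptors, were chosen with earlier results of these data known.

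In the arm from Gs to adenylyl cyclase and protein kinase A, 3 of 13 genes fell and none rose. Rapgef4, which encodes EPAC2, fell from 28.3 ± 1.76 to 12.6 ± 1.64 RPKM (log2 fold change -1.12 ± 0.15, adjusted p = 0.00353). Prkacb, a catalytic subunit of protein kinase A, fell from 72.2 ± 2.94 to 43.1 ± 7.69, and Prkar2b, a regulatory subunit, from 16.1 ± 1.22 to 9.2 ± 1.7 (adjusted p = 0.0281 and 0.0166). Of 8 cyclic AMP phosphodiesterases, which end the signal, 2 fell, Pde3b (-0.68 ± 0.17) and Pde4b (-0.62 ± 0.13), with adjusted p of 0.0259 and 0.016. Of 6 genes known to answer cyclic AMP, Crem fell (-0.68 ± 0.14, adjusted p = 0.0153) and Sik1 rose (0.65 ± 0.12, adjusted p = 0.0108).

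In the Gq and phospholipase C arm, 1 of 13 genes fell and 2 rose. Plcb1, a phospholipase C that Gq activates, fell by 0.75 ± 0.17 on the log2 scale (adjusted p = 0.0197). Gna11, an alpha subunit of the Gq family, rose from 38.4 ± 5.25 to 60.3 ± 5.06 RPKM (adjusted p = 0.028), and Prkcd, a protein kinase C, from 3.11 ± 0.711 to 5.88 ± 2.54 (adjusted p = 0.04). None of the 6 Gi/o proteins and GIRK channel genes passed either rule. Of 12 genes for receptor desensitisation, Grk5, a kinase that marks active receptors, fell by 0.64 ± 0.09 (adjusted p = 0.00382) and Rgs9, which speeds the shut-off of Gi/o proteins, by 0.64 ± 0.18 (adjusted p = 0.0426). With the preparation block Rgs4 and Rgs17 were added, making 4 of 12.

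In the prolactin receptor arm, 1 of 8 genes fell in vehicle. This was Ghr, the related growth hormone receptor, from 35.4 ± 3.91 to 21.3 ± 3.32 RPKM (log2 fold change -0.72 ± 0.14, adjusted p = 0.0124). Under the inhibitor 3 of 8 fell, with Ghr joined by Cish (-0.69 ± 0.18, adjusted p = 0.028) and Socs2 (-0.68 ± 0.16, adjusted p = 0.0162), feedback inhibitors that STAT5 is known to induce. In vehicle Cish had an adjusted p of 0.0445 but a fold change under 1.5 on the log2(RPKM + 1) scale (-0.56 ± 0.16). That scale understates the change of low genes. In RPKM, Cish went from 5.09 ± 0.986 in Ad-LacZ to 3.13 ± 0.53 in Ad-Cre in vehicle. Socs2, not called there, went from 5.9 ± 0.962 to 3.65 ± 0.837. Of 7 ligand genes made in islets, Ucn3, the beta cell peptide urocortin 3, fell from 270 ± 83.0 to 75.0 ± 51.3 RPKM, whereas Gcg, the glucagon gene, had a log2 fold change of 0.00 ± 0.33.

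Among 25 other islet receptors tested of 48 listed, 5 fell and 1 rose. On the log2(RPKM + 1) scale, which understates the change of low genes such as Cnr1, Crhr1 and Galr2, the largest falls were those of P2ry1, an ADP receptor, from 22.1 ± 2.95 to 9.44 ± 4.08 RPKM (adjusted p = 0.0266), Cnr1, a cannabinoid receptor, from 2.25 ± 1.01 to 0.595 ± 0.321, Crhr1, a receptor for corticotropin releasing hormone, from 2.59 ± 0.287 to 0.907 ± 0.382, and Vipr1 from 14.2 ± 1.41 to 7.44 ± 1.38. Their adjusted p were 0.00993, 0.0117 and 0.0128 for the last 3. Galr2, a relative of Galr1, was the 5th (log2 fold change -0.82 ± 0.18, adjusted p = 0.0192), and Vipr2 rose (0.84 ± 0.14, adjusted p = 0.00705). Galr2 and Vipr2 were named after their values were seen, to complete the count.

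**Figure D4:**
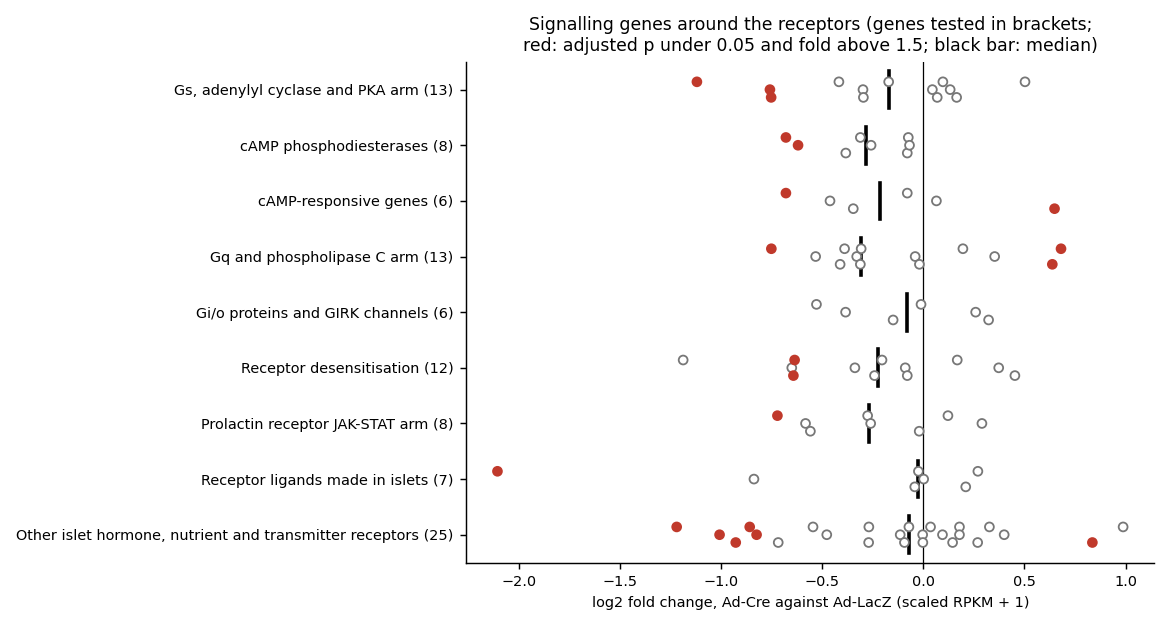
Log2 fold change between Ad-Cre and Ad-LacZ in vehicle (horizontal axis, on scaled RPKM plus 1) of the genes of 9 signalling lists (rows, genes tested in brackets). Red points passed an adjusted p under 0.05 and a fold change above 1.5, and black bars mark the medians, which lie between -0.31 and -0.02.

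Under the inhibitor, 28 of 99 tested genes of the lists were called between the viruses, 22 lower and 6 higher, beside the 14.6% of all genes, with a median log2 fold change of -0.22. Rapgef4 fell from 28.5 ± 1.18 to 9.46 ± 0.431 RPKM and Prkacb from 60.7 ± 5.85 to 28.9 ± 2.22. Grk5 fell by 1.21 ± 0.14 on the log2 scale. Rgs4, which limits Gq and Gi/o signals, fell from 207 ± 118 to 44.0 ± 17.3 RPKM (adjusted p = 0.00713). Between inhibitor and vehicle, no gene of the lists was called in either virus group, and by the unadjusted p 9 of 96 were called in Ad-Cre, beside 7.81% of all genes, and 9 of 97 in Ad-LacZ, beside 4.83%. With the preparation block 14 of 96 were called in Ad-Cre, 11 higher and 3 lower, beside 6.76% of all genes, and 1 of 97 in Ad-LacZ, where Rgs4 was higher, beside 0.335%.

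Likeness of pattern was described by Pearson's r of the log2 levels over the 16 libraries, among 12273 other genes, and these libraries share preparations, viruses and depth. Prlr was most like 9330182L06Rik (r = 0.992), Tmod2 (0.982) and Ppat (0.98), and Adra2a most like Tmem51 (0.986), the beta cell transcription factor gene Nkx6-1 (0.982) and Slc25a12 (0.978). For Ffar1 the nearest were Snph (0.979), Tmem8 (0.968) and Madd (0.966), and for Chrm3 Nipal3 (0.976), Prob1 (0.975) and Car10 (0.972). Glp1r was nearest to Gmpr (0.96), Mrfap1 (0.956) and Slc43a2 (0.955), and Sstr3 to Men1 (0.956), Umps (0.956) and Cog7 (0.944). Lower values were those of Gipr with Csmd2 (0.907), Rimbp2 (0.905) and Galr2 (0.903), Gpr119 with Gm5454 (0.903), Dock11 (0.902) and Cd59a (0.885), and Galr1 with Ube2j1 (0.902), Plpp6 (0.878) and Sec16b (0.876).

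Gcgr was most like Gm11789 (r = 0.932), followed by Scarf2 (0.906) and Sh2d5 (0.899). Gm11789 is annotated as antisense to Gcgr at the same locus, with no exon bases in common in GENCODE M21. Reads within these annotated exons thus fall at separate places. Whether the counting used strand or other exon bounds is not given in the sources used here. Reads outside these exons could therefore have been counted for either gene. Among the receptors themselves, the closest pairs were Chrm3 with Adra2a (r = 0.96), Ffar1 with Adra2a (0.95) and Ffar1 with Chrm3 (0.93). Adra2a couples to another G protein class than Chrm3 and Ffar1, which share theirs.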

How the data were processed

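RNA from 16 cultures of dispersed islet cells was sequenced (polyA libraries, paired-end reads). The authors aligned the reads to the mouse genome (GRCm38, per the labels' processing notes) and deposited RPKM values for 25105 genes. The counter, the gene lengths and the strand setting are not given in the sources used here. A further 3 columns of values match no sample's labels and were not used.

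RPKM are not counts, so the count-based test of the study was replaced by limma 3.58.1 (R 4.3.3). For each comparison a gene had to exceed 1 RPKM in 4 or more of its libraries. TMM scaling factors were derived from the RPKM of all genes, and log2(scaled RPKM + 1) was fitted with a trended variance prior and no block, so fold changes of low genes are understated. p was adjusted by Benjamini-Hochberg over all genes tested. Exact two-sided permutation tests (scipy 1.17.1) used the RPKM of single receptors and took the libraries as unpaired in every comparison. The fit was also run on simulated libraries drawn independently from the Ad-LacZ means and spreads. These lacked the pairing and the depth differences of the real libraries, so that run cannot show how the fit handles either. Depth was estimated from the steps of low values, of which 94.1% to 95.4% fell within 0.05 of a whole read.

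Residuals of libraries from the same preparation, which the labels tie to the same animals, correlated at 0.131 to 0.826 in the 4 comparisons. Other pairs had means below 0, which follows from subtracting each group's mean and adds no evidence of its own. By the labels the preparations pair the libraries, and values with preparation as a block stand beside the results they change.

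The receptors, gene lists, markers and tests were chosen with earlier results of these data known. All receptors are named, in the lists those called between the viruses (up to 4 with the largest change in each, with exceptions stated as named after their values were seen), and for likeness the 3 genes with the highest r. Alternatives were no scaling, quantile normalization, a pseudocount of 0.1, no filter, a filter of 0.1 RPKM, all 16 libraries in one fit, the replicate block, no variance trend and leaving out each preparation. Motifs and sequences came from RefSeq (GRCm38.p6), positions from GENCODE M21.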

Additional observations from a re-analysis of the deposited data

How the results depend on the processing

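No receptor that passed the adjusted threshold changed direction under any alternative scaling, pseudocount, filter or fit, or without any preparation. The adjusted p of Gpr119 between the viruses in vehicle ranged from 0.00533 to 0.0284 over the alternatives that kept all preparations, and from 0.0298 to 0.0929 when 1 preparation was left out. For Prlr these ranges were 0.00104 to 0.0837 and 0.0488 to 0.185 in vehicle, and 0.00417 to 0.047 and 0.0146 to 0.0901 with the inhibitor. For Ffar1 with the inhibitor they were 0.0198 to 0.0979 and 0.047 to 0.193.

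Between the viruses in vehicle, the number of receptors called with the adjusted p was 1 with no filter and with a filter of 0.1 RPKM, 3 without scaling (Ffar1 added), 5 with the replicate block, and 0 to 1 without 1 preparation. Over all genes, 983 of 11590 were called in the fit used above and 780 of 19984 with no filter. With a filter of 0.1 RPKM it was 931 of 15237, without scaling 1000 of 11590 and with the block 1263 of 11590. Without 1 preparation it ran from 165 of 11154 (F2 left out) to 704 of 11102 (M2 left out). By the unadjusted p the number of receptors was 6 without scaling, with quantile normalization and with the block (Adra2a added), and 2 to 5 without 1 preparation (2 without M2, 3 without F2). Of 11590 genes these settings called 1187, 1171 and 1328. Without 1 preparation the count over all genes ran from 845 of 11154 (F2 left out) to 1398 of 11402 (M1 left out). Between the viruses with the inhibitor, the adjusted count was 4 without scaling and with the replicate block, 3 with quantile normalization, 1 with a pseudocount of 0.1, no filter, a filter of 0.1 RPKM or no variance trend, and 0 to 3 without 1 preparation, and the unadjusted count was 3 to 5 without 1 preparation. Over all genes, the adjusted p called 1689 of 11598 in the fit used above. Of 11598 genes it was 1913 without scaling, 1850 with the block, 1575 with quantile normalization, 1945 with the pseudocount and 1693 with no trend. With no filter it was 1391 of 20183, and with a filter of 0.1 RPKM 1652 of 15221. Without 1 preparation it ran from 323 of 10991 (F2 left out) to 2396 of 10982 (M2 left out). By the unadjusted p it ran there from 1668 of 11361 to 2622 of 10982. For the inhibitor in Ad-Cre the unadjusted count was 1 without scaling and with no filter, 3 with the block (Ffar1 added), and 1 to 2 without 1 preparation, and the adjusted count was 1 with the block. For the inhibitor in Ad-LacZ the unadjusted count was 2 without scaling, with quantile normalization and with the block, and 1 to 2 without 1 preparation, and the adjusted count was 1 with the block. With the adjusted p, the interaction gave 0 receptors under every alternative. By the unadjusted p it gave 1 without F1 (Gpr119, higher), beside 792 of 12194 genes, and 0 under the other alternatives. More genes tested and fewer libraries are part of how the filters and the left-out preparations act, and beyond that the causes were not tested.

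The signs that turned belonged to log2 fold changes that were not called. Sstr3 between the viruses in vehicle was 0.04 without M2, and with the inhibitor -0.05 without scaling and -0.10 with quantile normalization. Galr1 between the viruses with the inhibitor was -0.04 without scaling and ran from -0.10 (without F2) to 0.21 without 1 preparation. For the inhibitor in Ad-Cre, Gipr was 0.04 with quantile normalization and between -0.05 and 0.02 without 1 preparation. There Galr1 was -0.14 without scaling and between -0.02 and 0.06 without 1 preparation (-0.01 without M1), and Prlr was -0.10 without scaling and between -0.08 and 0.10. For the inhibitor in Ad-LacZ, Gpr119 ran from -0.09 to 0.19 without 1 preparation, and Adra2a was -0.03 with quantile normalization and -0.02 to 0.09 without 1 preparation. In the interaction, Gipr was -0.04 without scaling, Chrm3 0.04 with quantile normalization and -0.08 to 0.04 without 1 preparation, and Prlr -0.23 to 0.12. With the adjusted p, the replicate block changed no other receptor's call than those given, and in the signalling lists it raised the calls between the viruses from 20 to 24 in vehicle (Ffar3, Npy, Rgs4 and Rgs17 added) and from 28 to 32 with the inhibitor (Npy, Prkd1, Pyy and Sst added). Depth limits mainly Gpr119, Gipr and Gcgr, whose lowest libraries held 68, 70 and 91 reads.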
